A study of Drosophila melanogaster with 2 samples.

Results

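The vacuolar protein sorting (Vps) and sorting nexin (Snx) genes of Drosophila melanogaster are described here for their promoter peaks of the protein CG8478. Of 13968 protein-coding genes, 41 were members: every gene with a symbol of Vps and a number or a symbol that starts with Snx, and dor, car, lt, Hrs, Stam, shrb and ALiX, 7 genes of the same complexes that were added by name. By textbook function, 13 belong to the ESCRT machinery, 7 to the HOPS and CORVET tethering complexes, 3 to the retromer and 7 to the sorting nexins, and 11 were other Vps genes. Flies of strain CG8478-GFP carried a transgene insertion that makes a CG8478-eGFP fusion (eGFP is a fluorescent tag), and whole embryos of 0 to 24 h were used for chromatin immunoprecipitation with an antibody against GFP, followed by sequencing (ChIP-seq). There was 1 group of 2 biological replicates, so no condition could be compared with another, and a control experiment that the labels name was not analysed here. Whole embryos pool all cell types and all embryonic stages, and the antibody sees the tag and not the protein itself. The number of embryos per replicate is not given in the sources used here.

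Endosomal sorting decides whether a membrane protein is degraded or recycled. ESCRT complexes gather ubiquitinated cargo and bud it into the lumen of the endosome, and CORVET and HOPS tether early endosomes, and late endosomes and lysosomes, before fusion. The retromer and many sorting nexins, which bind phosphoinositides on the endosome through a PX domain, carry receptors back to the Golgi or the plasma membrane. In Drosophila, mutants of dor, car and lt were first known for eye colour, since pigment granules are related to lysosomes.

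A gene was counted as having a promoter peak when the summit of a peak in the conservative list, the stricter of the lists made from both replicates, lay within 500 bp of one of its start sites. The deposited files give the authors' signal for each peak, with no stated scale and no read counts, so the depth is unknown and the signal was used only to describe and rank peaks within a list. Of the 41 members, 16 (39%) had such a peak, beside 3152 of all 13968 protein-coding genes (22.6%). Their peaks were 16 separate peaks, 1 per gene.

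Sequences at some of the summits that rank high among the members, or that stand for a class, are shown first. In them 4 letters of the motif described later, the DNA replication-related element (DRE), recur. Each runs from 50 bp before to 50 bp after a summit in build dm6 (RefSeq Release 6), read 5′ to 3′ in the direction of the member gene, with CGAT and its reverse complement ATCG in capitals. All lie before the start site of the member or reach across it, and at most 23 bases of a window fall in an annotated untranslated exon. They are examples only. Vps36, rank 99 in the conservative list, held 3 matches of CGAT or ATCG within 100 bp of its summit, the fewest of any member with a peak. It is not shown, nor is Vps39, with 2 matches in a window of the length used here.
Snx27, chrX:5738023-5738123, minus strand: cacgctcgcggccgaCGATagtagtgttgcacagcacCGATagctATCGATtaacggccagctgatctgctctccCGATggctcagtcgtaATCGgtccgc
Vps16A, chr3R:9266895-9266995, plus strand: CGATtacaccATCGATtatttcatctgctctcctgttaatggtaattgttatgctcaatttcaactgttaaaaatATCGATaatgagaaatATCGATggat
Vps8, chr3L:6495559-6495659, minus strand: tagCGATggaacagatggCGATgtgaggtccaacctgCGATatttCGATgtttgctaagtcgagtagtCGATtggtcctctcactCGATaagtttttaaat
Vps13D, chr3L:12754789-12754889, plus strand: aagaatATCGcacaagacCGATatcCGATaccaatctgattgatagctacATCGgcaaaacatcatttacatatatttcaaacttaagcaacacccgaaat
Vps29, chr2L:1150678-1150778, plus strand: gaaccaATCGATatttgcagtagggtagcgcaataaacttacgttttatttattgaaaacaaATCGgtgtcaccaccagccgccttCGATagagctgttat
Vps24, chr3R:4310925-4311025, minus strand: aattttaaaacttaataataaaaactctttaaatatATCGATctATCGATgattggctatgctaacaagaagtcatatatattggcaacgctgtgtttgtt

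The 100 bp before the start site are shown next for 6 members without a promoter peak, again with CGAT and ATCG in capitals. These too are examples: shrb and Vps28, not shown, held 5 and 4 matches from 250 bp before to 50 bp after the start site. Hrs, Stam, Vps4 and Vps26 had in each replicate no entry or a signal below that of every member with a peak. Among all ranked entries Vps4 was not low, at the 96.2 percentile in replicate 2. Snx3 and Vps53 are the members without a peak whose promoters held the whole DRE core. None of these windows overlaps an annotated exon.
Hrs, chr2L:2739886-2739985, plus strand: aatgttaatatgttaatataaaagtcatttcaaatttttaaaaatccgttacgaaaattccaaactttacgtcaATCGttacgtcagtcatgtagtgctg
Stam, chr2L:10858436-10858535, plus strand: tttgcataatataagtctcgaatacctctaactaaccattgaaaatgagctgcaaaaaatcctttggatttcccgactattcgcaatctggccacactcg
Vps4, chrX:17907592-17907691, plus strand: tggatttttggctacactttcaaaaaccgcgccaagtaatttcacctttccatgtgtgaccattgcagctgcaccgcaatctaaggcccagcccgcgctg
Vps26, chrX:1873753-1873852, plus strand: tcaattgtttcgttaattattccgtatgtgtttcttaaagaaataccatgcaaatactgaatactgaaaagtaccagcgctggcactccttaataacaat
Snx3, chr3R:12627931-12628030, plus strand: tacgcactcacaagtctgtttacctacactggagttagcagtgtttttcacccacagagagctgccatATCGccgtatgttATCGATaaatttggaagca
Vps53, chr2L:4386063-4386162, minus strand: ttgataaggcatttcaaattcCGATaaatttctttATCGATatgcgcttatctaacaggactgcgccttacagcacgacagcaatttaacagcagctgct

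In these windows the summit sequences held 6 matches of the capital letters at Snx27, 7 at Vps16A, 6 at Vps8, 4 at Vps13D, 4 at Vps29 and 4 at Vps24. The upstream sequences held 1 at Hrs, 0 at Stam, Vps4 and Vps26, and 3 at Snx3 and Vps53. ATCGAT counts as 2 overlapping matches, 1 on each strand. Vps15 and Vps45, not shown, held 3 each in a summit window of this length. The summit of Vps8 lies 312 bp from its start and 71 bp from that of sfl. These windows were picked as examples and differ in kind, centred on a summit or set before a start site. Their counts are therefore no comparison of members with and without a peak.

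Among the ESCRT genes, 2 of 13 (15.4%) had a promoter peak, beside 22.6% of all genes, a share that 3 of 13 genes would pass, so the count is near that of all genes. Vps36, an ESCRT-II subunit that binds ubiquitin and phosphoinositides, had a peak at chr3L:13513055-13513456 with a signal of 296 in replicate 1 and 292 in replicate 2, and of 582 in the conservative list, rank 99 of 2904. Vps24, an ESCRT-III subunit that helps to sever the budding neck, had 57.4 in replicate 1, 41.5 in replicate 2 and 106 in the conservative list, the 41.2 percentile. Both genes had peaks in each replicate's own list, and the replicates of Vps36 nearly coincided while Vps24 was lower in replicate 2.

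The other 11 ESCRT genes had no promoter peak. They were the ESCRT-0 genes Hrs and Stam, which recognise ubiquitinated cargo; Vps28 and Vps37B of ESCRT-I; Vps25 of ESCRT-II; Vps2, Vps20, shrb and Vps60 of ESCRT-III; Vps4, the ATPase that takes ESCRT-III filaments apart; and the associated adaptor ALiX. The highest in replicate 1 was Vps28, with 27.9 there and 19.4 in replicate 2, and the highest in replicate 2 was Vps4. Hrs had 14.5 and 19.9, Vps4 19.3 and 27.7, and shrb 23.3 and 10.1 in replicates 1 and 2. Vps20 had 19.5 and 20.2, and Vps2 17.5 and 17.7. Vps25, Vps37B and Stam had an entry in replicate 2 only, from 13.2 to 14.9, ALiX in replicate 1 only, at 24.0, and Vps60 in neither. In both replicates these 11 genes lay below Vps24, the lower of the ESCRT genes with a peak. Of 4 ESCRT genes that the naming rule does not take in, TSG101, lsn, Chmp1 and CHMP2B, 0 had a peak, so that the count over 17 ESCRT genes was 2. With mop, the Drosophila counterpart of the ESCRT-associated phosphatase HD-PTP, which had a peak with a signal of 120 in the conservative list, it was 3 of 18.

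Among the HOPS and CORVET genes, 4 of 7 (57.1%) had a promoter peak, beside 22.6% of all genes. When a peak counted only for the start nearest its summit, 1 of 7 did, beside 16.2% of all genes. The peaks of Vps16A, Vps39 and Vps8 lay nearer to TrpRS, eIF1A and sfl. The 4 were dor (Vps18 in yeast) and Vps16A, subunits of the shared core, Vps39 of HOPS, and Vps8 of CORVET. Vps16A had a signal of 291 in replicate 1, 205 in replicate 2 and 484 in the conservative list, rank 173 of 2904. Vps8 had 163 in replicate 1, 120 in replicate 2 and 287 in the conservative list, the 82 percentile. Vps39 (chr3R:18274464-18274699) had 144, 134 and 281 in the same order. The peak of dor (chrX:1664930-1665130) had 129, 121 and 246. All 4 peaks lay in the upper 25% of the conservative list and in each replicate's own list, and replicate 1 was the higher at each.

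The other 3 HOPS and CORVET genes stood apart from these. car, of the shared core, the Drosophila Vps33A that binds SNARE proteins, had a signal of 39.1 in replicate 1 and 14.96 in replicate 2, with no peak in a thresholded list. Vps11, and lt, the Drosophila Vps41, had no entry within 500 bp of a start site even in the long ranked lists, which also hold weak peaks. Whether reads can be mapped at these starts was not tested, so a missing entry is no measure of the signal. Subunits of the shared core and of HOPS were thus found both with and without a peak.

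Of the 3 retromer core genes, Vps29 and Vps35 had a promoter peak and Vps26 did not. Over all genes the share with one was 22.6%. Vps29, which Vps35 carries at its far end, had a signal of 139 in replicate 1, 67.8 in replicate 2 and 211 in the conservative list. Vps35, the scaffold of the complex, had 112, 80.6 and 195 in the same order. Vps26, an arrestin-like subunit, had no ranked entry in replicate 1 and a signal of 5.59 in replicate 2, the lowest value of any member that had an entry there. Replicate 1 exceeded replicate 2 at both genes with a peak, and Vps26 lay far below both.

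Of the 7 sorting nexins, Snx27 and Snx6 had a promoter peak (28.6%), near the 22.6% of all genes. They were far apart in signal. Snx27, which in mammals links cargo with PDZ-binding tails to the retromer, had 409 in replicate 1 and 480 in replicate 2. Its signal of 888 in the conservative list was rank 20 of 2904, the highest of all members. Snx6, a sorting nexin with a membrane-bending BAR domain (peak at chr2L:8220555-8220958), had 48.1 in replicate 1, 34.3 in replicate 2 and 86.0 in the conservative list, the 31.9 percentile. Snx27 was the single member with a peak that was higher in replicate 2 than in replicate 1.

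The remaining sorting nexins were Snx1, Snx3, Snx16, Snx17 and Snx21. Snx3, which in flies recycles the Wnt carrier Wntless with the retromer, had 40.8 in replicate 1 and 53.4 in replicate 2, lower than Snx6 in replicate 1 and higher in replicate 2. Its entry in the ranked list of both replicates had a signal of 81.4 and a −log10 of the irreproducible discovery rate (IDR, which estimates how often an entry of that rank fails to recur between replicates) of 2.91. That passes the 2.0 that corresponds to an IDR of 0.01, but the entry is in none of the thresholded lists used here. In all, 107 of 3025 ranked entries at an IDR of at most 0.01 were not in the conservative list, and the reason is not given in the sources used here. The other 2918 exceed the 2904 conservative peaks counted here, so entries and peaks were not matched 1 to 1. Counted by that IDR alone, 17 of 41 members had a peak, beside 23.1% of all genes. Snx17 had 25.9 and 21.3, Snx16 32.2 and 13.7, and Snx21 14.8 and 14.7 in replicates 1 and 2, and Snx1 had no entry. Snx1, another BAR-domain nexin and a partner of Snx6 in the membrane coat, was thus the single nexin with no entry in either replicate.

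Among the other Vps genes, 6 of 11 (54.5%) had a promoter peak, beside 22.6% of all genes. When a peak counted only for the start nearest its summit, 3 of 11 did, beside 16.2% of all genes. Of the Vps13 family, whose proteins form bridges that pass lipids between membranes, Vps13D had 185 in replicate 1, 168 in replicate 2 and 361 in the conservative list, the 88 percentile. Vps13B (peak at chr3R:29935742-29936145) had 114.95 in replicate 1, 50.6 in replicate 2 and 161 in the conservative list. Its entry in replicate 2's own ranked list had a −log10 IDR of 1.83, a value that does not compare the replicates. That entry was not in replicate 2's own thresholded list. Vps13 itself had 28.5 and 24.6 and no peak within 500 bp. Its entry in the ranked list of both replicates, with a −log10 IDR of 1.995, was the nearest to the threshold among the members without a peak, Snx3 apart.

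Vps15, the regulatory subunit of the class III phosphatidylinositol 3-kinase that makes the lipid read by PX domains, had its peak at chr3R:9245950-9246093, with 117 in replicate 1, 83.8 in replicate 2 and 196 in the conservative list. Vps45, a Sec1/Munc18-type regulator of SNARE proteins (chr3R:9563536-9563939), had 124, 95.8 and 225. Of the GARP complex, which tethers endosome-derived vesicles at the Golgi, Vps52 (chr2L:5524042-5524445) had 98.7, 39.8 and 149, and Vps51 39.4, 33.7 and 82.3. Vps51 had the lowest signal of the 16 members with a peak and was in neither replicate's own list. The third GARP gene among the members, Vps53, had 18.1 and 17.1 and no peak, and Vps50, the EARP counterpart of that complex, had 17.5 and 15.7.

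At Vps33B the replicates gave different calls. It had a signal of 106 in replicate 1 and a place in that replicate's own list, and no ranked entry at all in replicate 2. In replicate 1's own ranked list its −log10 IDR was 4.71, a value that does not compare replicate 1 with replicate 2. Vps16B, whose product pairs with that of Vps33B, had 11.3 in replicate 1 and no entry in replicate 2.

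**Figure D1:**
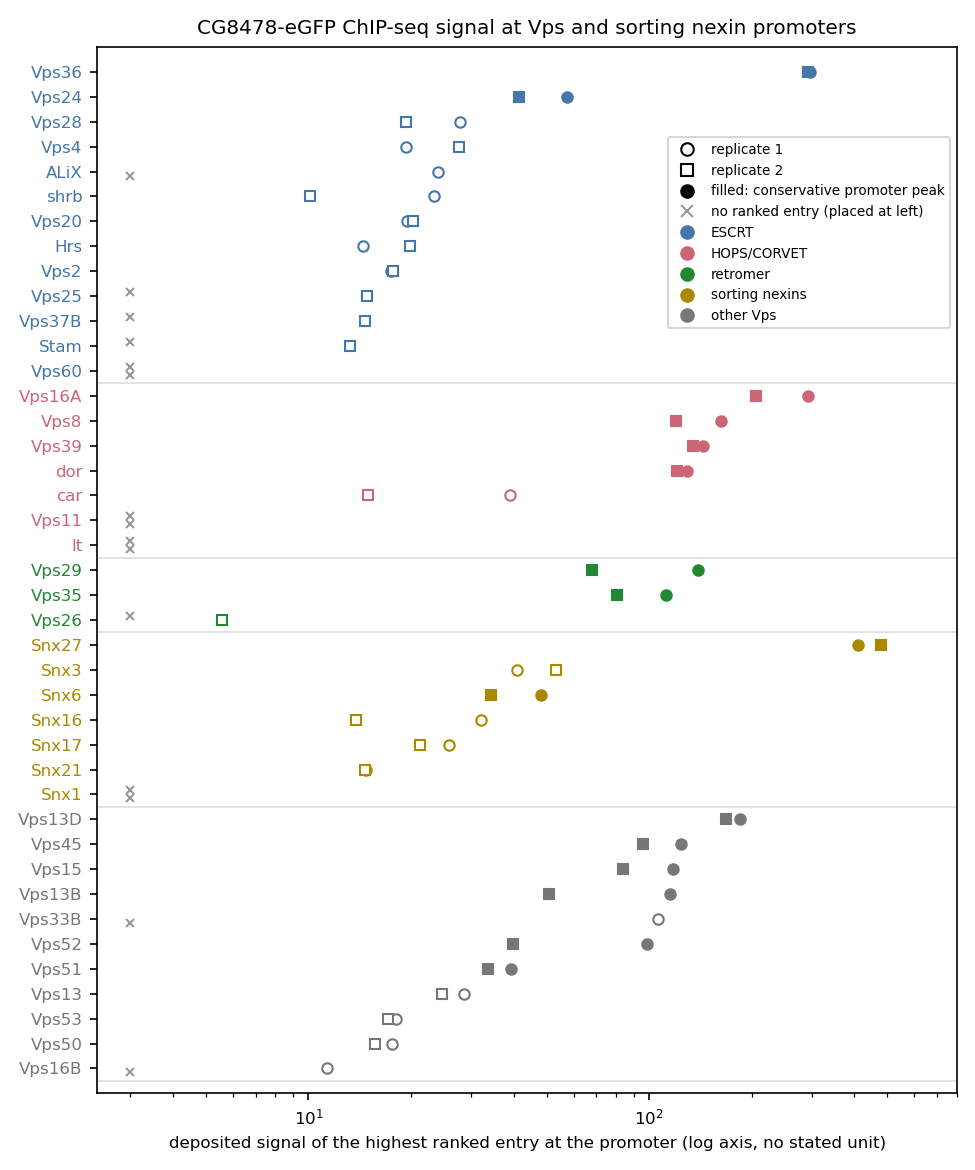
Signal of the highest ranked entry within 500 bp of a start site (log axis, no stated unit) for each of the 41 members in replicate 1 (circles) and replicate 2 (squares), with filled symbols for members that have a conservative promoter peak and crosses at the left for no entry. Filled symbols run from 39.4 to 409 in replicate 1 and from 33.7 to 480 in replicate 2, and open ones reach into that range at Snx3 and Vps33B.

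Of the 25 members without a promoter peak, 19 had an entry in the ranked list of both replicates, with a signal from 7.91 to 81.4 and a median of 35.9. Over the 10816 protein-coding genes without a peak, 69% had such an entry, with a median of 26.5. Vps37B and Vps33B had an entry in 1 replicate's ranked list alone, and Vps60, Vps11, lt and Snx1 in none.

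Across the members with a peak the signal in replicate 1 ran from 39.4 to 409 with a median of 126, and in replicate 2 from 33.7 to 480 with a median of 89.8. The members without a peak that had an entry ran from 11.3 to 106 in replicate 1 (median 23.3, n = 17) and from 5.59 to 53.4 in replicate 2 (median 16.4, n = 18). The split between the groups rests on the same peak calls, so this gap describes the split and is no finding. Replicate 1 was higher at 15 of the 16 members with a peak. The log2 ratio of replicate 1 to replicate 2 there had a median of 0.45 and ran from −0.23 to 1.31, beside a median of 0.15 and an SD of 0.49 over the 3137 protein-coding genes with a peak and an entry in both.

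In the conservative list the members' median signal was 218, the 71.3 percentile of the list, and that of all protein-coding genes with a promoter peak was 166, the 60.1 percentile. Of the 16 members, 13 lay above the list's median, 7 in its upper 25% and 3 (Snx27, Vps36 and Vps16A) in its upper 10%. Of all protein-coding genes with a peak, 33% lay in the upper 25% and 13.2% in the upper 10%. For the 13 no such share was counted, and the median of all genes with a peak also lay above the list's median. The 3 in the upper 10% were of 3 different classes, too few to describe a class. The summits of Vps36 and Vps16A lay nearer to the starts of Liprin-beta and TrpRS.

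The count of members was similar in each replicate. In replicate 1's own list 16 members had a promoter peak, beside 19.5% of all genes, and in replicate 2's own list 14 did (34.1%), beside 18.8%. Replicate 1's list held Vps33B and lacked Vps51, and replicate 2's list lacked Vps13B and Vps51. The ESCRT, HOPS and CORVET, retromer and nexin counts of 2, 4, 2 and 2 were the same in both, and the other Vps genes gave 6 and 4. The optimal list, the longer of the lists made from both replicates, held 16 members, beside 23.5% of all genes. Of the 16 members with a conservative peak, 14 were in both replicates' own lists, and 72.5% of all protein-coding genes with a conservative peak were. No class was tested against another or against all genes, and the smallest class has 3 genes.

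The summits lay close to the start sites, mostly upstream. The median position was −58 bp from the member's start site, beside −59 bp for all protein-coding genes with a peak. Of the 16 summits, 15 lay upstream (86.4% over all genes with a peak), the exception being Vps35 at +9 bp, and 9 lay within 100 bp (65.1% over all). The greatest distance was 346 bp, at Vps52. Just outside the window, the nearest conservative summits to members without a peak lay at −1040 bp from Vps53 and −1171 bp from Vps13, with signals of 79.0 and 165.

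Many of these promoters are divergent, and 9 of the 16 peaks also lay within 500 bp of the start of a head-to-head gene on the other strand. Of all protein-coding genes with a peak, 59.7% shared it with another coding start on either strand. For 7 of the 9 the summit was nearer to the neighbour, at 41 to 93 bp, than to the member, at 74 to 346 bp. The neighbours in those cases were Liprin-beta at Vps36, TrpRS, a tRNA synthetase, at Vps16A, eIF1A, a translation initiation factor, at Vps39, and sfl, a heparan sulfate modifying enzyme, at Vps8. The others were CG10973 at Vps13D, CG9393 at Vps45, and Elp4, an Elongator subunit, at Vps52. At Vps36 the summit lay inside the neighbour's gene, 47 bp past its start, and at Vps52 it lay between the 2 annotated starts of Elp4, 54 bp from the nearer. At Vps29, which shares its peak with the TFIIH gene Tfb4, and Vps13B, which shares it with eIF2Balpha, the member's start was the nearer.

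Which gene of such a pair the peak belongs to cannot be told from these data. When a peak counted only for the start nearest its summit, 9 of 41 members (22%) had one, beside 16.2% of all genes. The count of HOPS and CORVET genes was then 1 in place of 4, with dor left, that of ESCRT genes 1 in place of 2 and that of the other Vps genes 3 in place of 6, and the retromer and nexin counts were 2 each as before. The 7 members whose peak lies at no other coding start were Snx27, dor, Vps15, Vps35, Vps24, Snx6 and Vps51, with signals from 82.3 to 888 and a median of 195. Shared peaks ran from 149 to 582 with a median of 281.

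**Figure D2:**
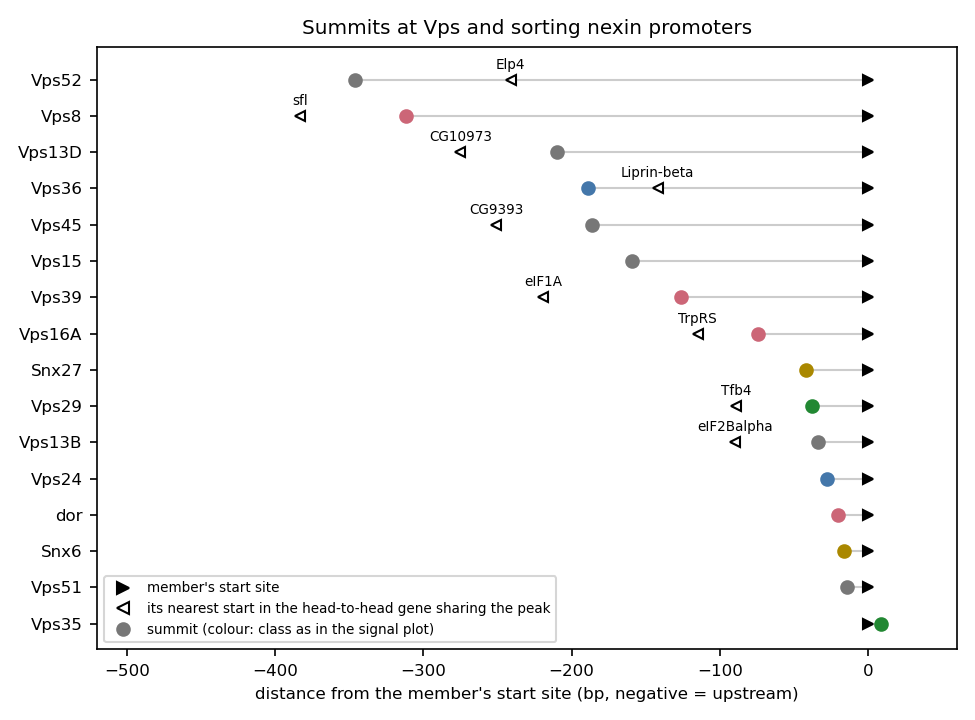
Position of the summit (dots, coloured by class) relative to the start site of each of the 16 members with a peak (filled triangles, 0 bp), with the nearest start of the head-to-head gene that shares the peak (open triangles) on an axis in bp. In 7 rows the summit lies nearer to the open triangle, and in the 7 rows without an open triangle it lies 9 to 159 bp from the member's start.

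Head-to-head arrangement was common among all members, with or without a peak. A coding start on the opposite strand lay within 500 bp upstream for 21 of 41 members (51.2%), beside 27.3% of all protein-coding genes. Within these 21 members 9 had a peak (42.9%), close to the 46.1% of all head-to-head genes. Of the 20 members with no such neighbour 7 had a peak (35%), beside 13.7% of all genes of that kind. Each split rests on few members and was not tested.

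Motif content was counted on both strands from 100 bp before to 100 bp after the summit. A match describes the letters in the window and is no evidence of a factor there. The DRE core, TATCGATA, is the palindrome bound by the factor Dref at promoters of housekeeping genes in flies, and it holds TATCGAT and CGATA, the latter also known as the core of sites of the insulator protein BEAF-32. The whole core was in 5 of the 16 member peaks (31.2%), the same share as in all 2411 promoter peaks of protein-coding genes (31.1%). Those 5 were Vps36, Vps16A, dor, Vps51 and Vps52.

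For shorter words of the core the members' share lay above that of all peaks. TATCGAT was in 13 of the 16 member peaks (81.2%), beside 53.9% of all, and CGATA in all 16, beside 79.8%. The 3 peaks without TATCGAT were Vps39, Vps8 and Vps13D, each of which had 2 or 3 matches of CGATA. The TATCGAT nearest to the summit lay at a median distance of 14 bp in the members, beside 21 bp over all peaks that held one, and at 54 bp at most. Beside the sequences shown above, Snx27 held 1 such match 3 bp from its summit, and Vps24 2 matches, 12 and 4 bp from it. The shorter words were planned as alternatives to the core.

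The member peaks held CGAT and its reverse complement often, a count that was added after the summit sequences had been seen. These windows of the members held a median of 5.5 matches, from 3 at Vps36 to 10 at Snx27, beside a median of 4 over other coding promoter peaks. At least 3 matches were in 71% of all 2411 peaks. That cut equals the members' own lowest count, so that all 16 pass it is built in. Vps8, which lacks TATCGAT, held 9 and Vps16A and Vps29 8 each.

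Promoters of members with and without a peak were compared from 250 bp before to 50 bp after the start site. TATCGAT was in 14 of 16 promoters with a peak (87.5%) and in 3 of 25 without (12%), which were Vps28, Vps53 and Snx3. In other protein-coding genes it was in 54% with a peak, 7.74% without, and 18.2% of all promoters held it. The whole core was in 6 of 16 (37.5%) and 2 of 25 (8%), beside 31.4% and 2.92% of the other genes and 9.36% of all. Of the 8 members with the core 6 had a peak (75%), beside 75.8% of all genes with it, and of the 33 without 10 had one (30.3%), beside 17.1%. In Snx3 the core lay at −20 bp and in Vps53 at −66 bp. CGATA was in 16 of 16 and 12 of 25, beside 81.3% and 37.5% of the other genes and 47.4% of all. The promoters of members thus divided along the same letters as those of the other genes, with a wider gap for TATCGAT that was not tested.

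**Figure D3:**
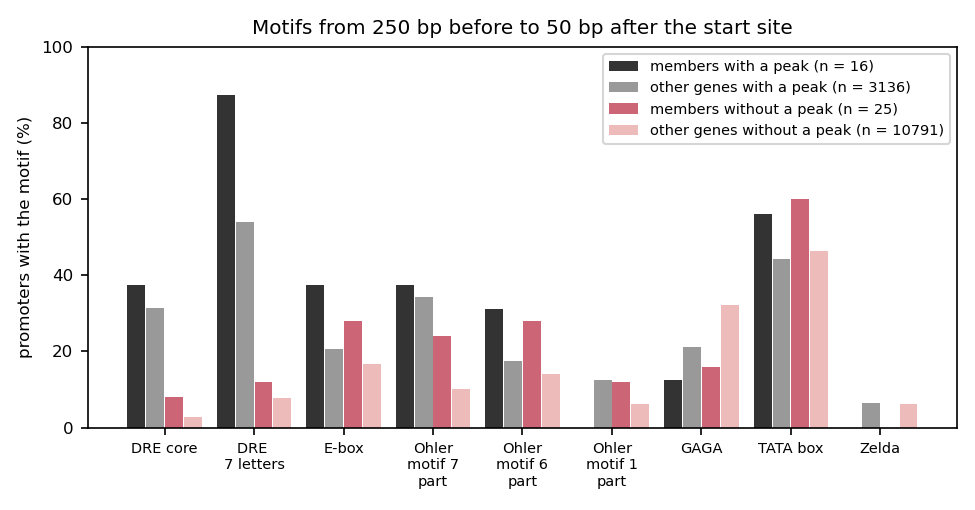
Share of promoters (%, 250 bp before to 50 bp after the start site) that hold each motif on either strand, for members with (n = 16) and without (n = 25) a conservative promoter peak and for other protein-coding genes with (n = 3136) and without (n = 10791) one. For the DRE word of 7 letters the bars stand at 87.5% and 54% for genes with a peak and at 12% and 7.74% for genes without.

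Counted in the same promoters, CGAT and its reverse complement had a median of 6 matches in members with a peak (from 1 to 10) and of 1 in members without (from 0 to 5). Other genes had medians of 4 and 2. At least 3 matches were in 15 of 16 promoters of members with a peak (93.8%) and in 7 of 25 without (28%). In the other genes the shares were 73.4% and 35.9%, and over all promoters 44.4%. This cut equals the lowest count in the members' summit windows. The median GC content of these promoters was 33.9% and 34.9% for members with and without a peak, and 36.2% and 38.9% for the other genes.

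**Figure D4:**
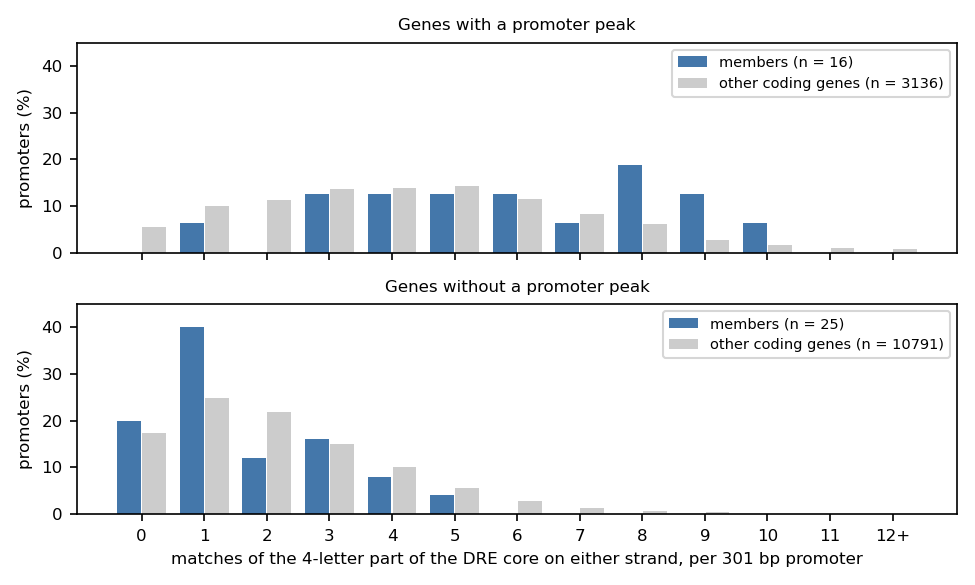
Share of promoters (%, 250 bp before to 50 bp after the start site) by the number of matches of CGAT, 4 letters of the DRE core, on either strand, for members and other protein-coding genes with (top) and without (bottom) a promoter peak. Members with a peak spread from 1 to 10 matches around a median of 6, and members without one sit between 0 and 5 with a median of 1.

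Each of the other motifs searched was in 7 or fewer of the 16 member peaks. CANCNCTA, part of Ohler motif 7, was in 7 of 16 (43.8%) beside 31.3% of all peaks, among them Vps39, Vps8 and Vps13D, the 3 that lack TATCGAT at the summit. The E-box CAGCTG was in 5 (31.2%, all 15.1%), GAGAG, the GAGA factor word, in 5 (31.2%, all 16.5%), GTATNTTT, part of Ohler motif 6, in 3 (18.8%, all 10.5%) and TATAAA, the TATA box, in 3 (18.8%, all 25.5%). GGTCACAC, part of Ohler motif 1, and CAGGTA, the word of the early activator Zelda, were in 0 of 16, beside 9.21% and 4.4% of all. The 3 words of 8 letters held by most member peaks were AATCGATA, ATATCGAT and ATCGATAA, each in 7 of 16, beside 17.2%, 22.9% and 21.2% of all. They overlap TATCGAT on one strand or the other. They were picked for being frequent in the members, so a share above that of all peaks is partly built in. ATCGATAG, which overlaps it as well, was in 5 of 16 (31.2%), beside 30.7% of all. Of words of A and T alone, AAATTTTA and AATTTTAT, which overlap each other, were in 6 and 5 of 16 member peaks, beside 5.23% and 5.27% of all. AAAATAAA and AAATAAAA, which also overlap, were in 5 of 16 each, beside 12.7% and 11.8%. These words and ATCGATAG were named after their values were seen.

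High and low member peaks occurred with and without the DRE core. The 5 member peaks that held it had a median signal of 246 (82.3 to 582), and the 11 without had 211 (86.0 to 888). Over the other coding promoter peaks the medians were 191 for the 746 with the core and 123 for the 1649 without. Snx27, the highest member peak, lacked the core, and Vps51, the lowest, held 2 copies.

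A list of 54 other endosomal genes was set beside the members, of which 52 matched a gene in the annotation and 25 had a promoter peak (48.1%, beside 22.6% of all genes), with a median signal of 273. Among 8 Rab GTPases, the switches that give endosomes their identity, 6 had a peak: Rab11 of recycling endosomes (601), Rab21 (528), Rab35 (495), Rab7 of late endosomes (405), Rab2 (317) and Rab14 (247) by signal in the conservative list. Rab5 of early endosomes and Rab4 had none. Rab7 is a partner of HOPS, and its signals were 214 in replicate 1 and 185 in replicate 2.

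Of 8 SNARE genes, which drive fusion after tethering, 5 had a peak, with signals of 490 at Ykt6, 273 at Syx17, 268 at Vamp7, 113 at Syx13 and 88.5 at Syx7. Of 5 genes of the WASH complex, which nucleates actin on endosomes beside the retromer, FAM21 alone had one (628). Of 5 genes of the AP adaptor complexes, a count that leaves out Gga, g alone had one (336). The clathrin genes Chc (598) and Clc (161) and the dynamin gene shi (521) had peaks, as did the endosomal chaperone gene Rme-8 (396), the lipid kinase gene fab1 (311), SH3PX1 (238), Gga (237), Rabex-5 (222) and mop (120). Atg6 (64.3) and Pi3K59F (56.4), whose products form the kinase complex of Vps15, and Lamp1 (55.8) had weak ones. The remaining matched genes had no peak: TSG101, lsn, Chmp1, CHMP2B, Usp8, scat, Uvrag, Rab5, Rab4, Rbsn-5, wash, Strump, SWIP, CCDC53, Vti1a, Vti1b, Snap29, Ccz1, Mon1, Arl8, mtm, AP-1-2beta, AP-2alpha, AP-1gamma, AP-1mu, Lerp and TBC1D5.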

How the data were processed

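Peak lists of anti-GFP ChIP-seq of CG8478-eGFP in whole embryos (2 biological replicates, 1 group) were used. The authors deposited peaks in build dm6, called against a control, per the file headers, with the aligner and caller not given in the sources used here. Each deposited peak has a signal value of no stated scale and a summit offset in bp, and in the ranked lists the authors deposited a −log10 IDR beside them. The values of 1 replicate come from its own ranked list. Entries with the same ends were counted once, on the 7 main chromosome arms, which left 2904 conservative, 3101 optimal, 2520 replicate 1 and 2225 replicate 2 peaks.

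Start sites came from Ensembl release 115 and sequences from the RefSeq Release 6 genome. Where a gene had several ranked entries, the highest was taken. Motifs were searched on both strands. All results are descriptions with no test. The members, classes and gene lists were chosen with earlier results of these data known. All members are named, the listed endosomal genes with a peak by signal and the rest by name, and the genes that share a member's peak. The procedure was tested on simulated data. Alternatives were other lists, windows, thresholds and motif words. Python 3.11.15, NumPy 2.4.6, pandas 2.3.3 and matplotlib 3.10.9 were used.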

Additional observations from a re-analysis of the deposited data

How the results depend on the processing

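Of 76 recomputed values, 64 stayed within 1.5 times the reported count or within the spread of the replicates in percentile. Without replicate 1 or 2, 14 to 16 members had a promoter peak, with 4 to 6 other Vps genes, 4 peaks with the DRE core and a median percentile of 64.04 to 70.56, beside 71.35; the cause of the lower values was not tested. Among the upper 50% of peaks by signal, 13 members were left, with 1 ESCRT gene, 1 nexin and a median percentile of 75.96. When a peak counted only for the start nearest its summit, the counts were 9 members, 1 ESCRT gene, 1 HOPS or CORVET gene, 3 other Vps genes and 2 peaks with the DRE core, at a median percentile of 66.7. In place of the DRE core, 13 peaks held the word of 7 letters and 16 that of 5 letters, both of which lie within the core. The optimal list, windows of 250 and 1000 bp, motif windows of 50 and 200 bp on either side of the summit, and 2 alternatives chosen after seeing the data (entries with the same ends kept apart, and ranked entries at an IDR of at most 0.01) moved no count by more than 1.5 times. No paired analysis was possible because there is 1 group. With no read counts, it is unknown how depth limits the members without a peak.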
